A study of Mus musculus with 6 samples.

Results

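The cells described here are CD8 T cells in which at least 1 molecule of Havcr2 RNA was counted. Havcr2 (chromosome 11, 46454935 to 46481255, plus strand, GRCm38) encodes TIM-3, an inhibitory receptor of T cells. A cell was taken where it held at least 3 unique molecular identifiers (UMIs, each a counted RNA molecule) over Cd3d, Cd3e, Cd3g, Trac, Trbc1 and Trbc2, at least 1 UMI of Cd8a or Cd8b1 and at least 1 UMI of Havcr2. It also had to lack any UMI of Cd4, Foxp3 and Cd79a, hold at most 5 UMIs over the myeloid genes Lyz2, C1qa, C1qb and C1qc, and hold at most 1 UMI over the division genes Mki67 and Top2a. Of 51633 cells with at least 250 genes and at most 5% mitochondrial UMIs, 3131 met this rule, or 6.06%. They were about as many as the 3078 nondividing CD8 T cells of the same libraries that had no Havcr2 UMI.

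The 6 libraries came from female C57BL/6 mice, 6 to 8 weeks old, that carried KPCA ovarian tumor cells injected into the bursa of 1 ovary, and each library held the cells of 1 mouse. KPCA is a mouse ovarian cancer line that keeps homologous recombination and carries Trp53 loss with R172H and overexpressed Ccne1 and Akt2, among other changes. The control mouse received solvent and rat IgG, and the other groups received 2DG (2-Deoxy-D-glucose, a glucose analog), 2FF (labelled 2F-Peracetyl-Fucose, a fucose analog), anti-PD-L1 alone, 2DG plus anti-PD-L1 (called the 2DG combination below) or 2FF plus anti-PD-L1 (the 2FF combination). The agent 2DG and the antibodies began about day 9 after injection and 2FF was given after implantation, the tumor cells of the 2FF groups had also been pretreated with 2FF for 3 days, and the mice were killed at day 30. The labels give the tissue as lymph node and the series text speaks of young and aged mice, whereas the methods describe KPCA tumors of young mice, and this difference was not resolved here.

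CD8 T cells recognise peptides on MHC class I and kill target cells with perforin and granzymes. Under lasting antigen, as in tumors, they pass into a state called exhaustion, in which inhibitory receptors such as PD-1, LAG-3, TIM-3, TIGIT and CTLA-4 accumulate. A stem-like fraction marked by the transcription factor TCF-1 (gene Tcf7) renews the pool and answers to blockade of the PD-1 pathway, while the TIM-3-positive fraction is the terminal, killing one. TIM-3 binds galectin-9, phosphatidylserine, HMGB1 and CEACAM1, and its signal runs through BAT3 and the kinases Fyn and Lck.

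The members were unevenly spread. The control library gave 50 cells, the 2DG library 410, 2FF 865, anti-PD-L1 642, and the combinations with 2DG and with 2FF 757 and 407. Values listed for all 6 libraries follow that order. The control library was small for all T cells, with 495 of 9075 cells against 2163 to 3364 T cells in the others, so every value of the control group rests on few cells. Median depth per member ran from 6192 UMIs (2FF) to 8213 (the 2FF combination), and the members of a library summed to 369224 UMIs in control and to 3001200 to 5768592 in the other 5. Havcr2 itself was sparse. It was counted once in 976 members (31.2%), 2 times in 614 (19.6%) and at least 3 times in 1541 (49.2%), with a maximum of 28, and the cells just outside the rule are the 3078 with 0 UMIs. A computed doublet score marked 182 members (5.81%), and these were kept. Of the member barcodes, 3 occurred in a second library.

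By the rule every member held Cd8a or Cd8b1. Cd8a was counted in 94.0% to 98.0% of the members of each library and Cd8b1 in 91.7% to 95.4%. Lag3 was counted in 54.0% of the control members and in 74.9% to 80.8% elsewhere, and Pdcd1 in 62.0% of the control members and in 64.9% to 73.1% elsewhere. Tcf7 was counted in 1.97% to 3.69% of the members, although the rule did not use it. In the same libraries, 735 nondividing CD8 T cells had a Tcf7 UMI and no Havcr2 UMI (17 in control, 119 to 165 elsewhere), and 2343 had neither (36 in control, 251 to 562 elsewhere). These populations are called Tcf7-positive Havcr2-negative and double-negative below.

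Of all nondividing CD8 T cells, the share with a Havcr2 UMI was lowest under 2DG. It was 48.5% in control (95% exact binomial interval 38.6% to 58.6%), 39.9% under 2DG (36.9% to 43.0%), 55.0% under 2FF (52.5% to 57.4%), 49.5% under anti-PD-L1 (46.7% to 52.2%), 53.0% in the 2DG combination (50.3% to 55.6%) and 52.4% in the 2FF combination (48.8% to 55.9%). The 2DG interval lay below those of the 4 other treated libraries and overlapped that of control. With 1 mouse in each group no group could be tested against another by itself, and these intervals, like all Poisson and binomial intervals given here, cover counting error only. A share of this kind moves with depth, so every cell was also thinned to 2000 UMIs. The shares then fell to 30.6%, 22.5%, 33.7%, 28.8%, 33.6% and 30.8% in the same order. With at least 2 Havcr2 UMIs they were 31.1%, 25.9%, 37.5%, 32.4%, 37.9% and 39.4%. The 2DG library was lowest in each, while the highest was 2FF without thinning, 2FF and the 2DG combination nearly alike when thinned, and the 2FF combination with at least 2 UMIs.

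**Figure D1:**
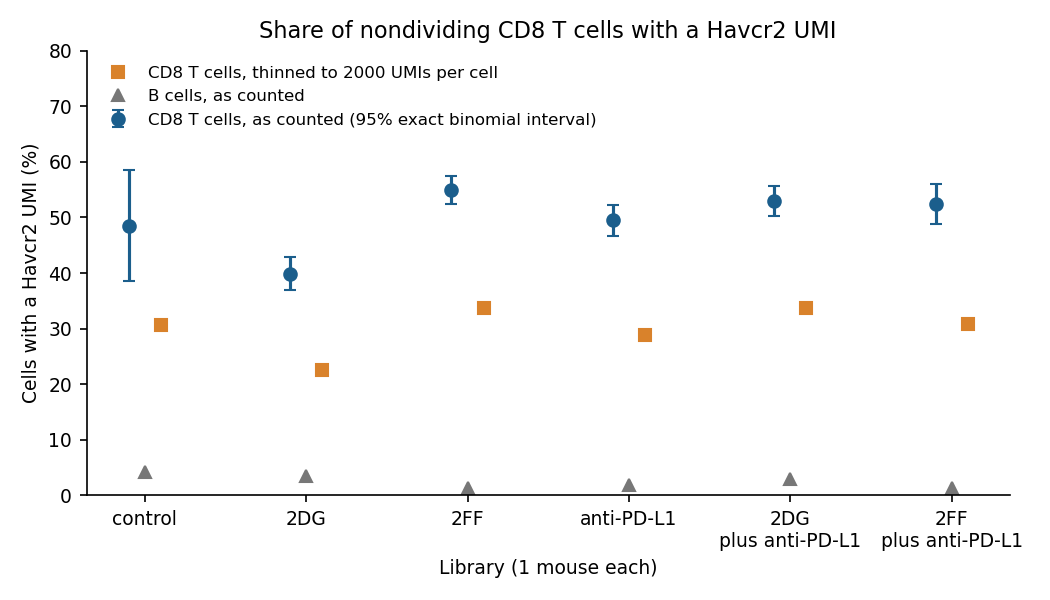
Share of nondividing CD8 T cells with a Havcr2 UMI (y axis, %) in each library (x axis). Blue circles are unthinned cells with 95% exact binomial intervals, orange squares the same cells thinned to 2000 UMIs, and grey triangles B cells of the same library. The 2DG library is lowest on both CD8 scales, and B cells stay at or below 4.17%.

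B cells, which should lack the gene, were counted as a guide to the level of free RNA and stray reads. They held at least 3 Cd79a UMIs, at most 5 myeloid UMIs and none of the CD3 and T cell receptor genes of the rule. That last condition leaves out B cells with stray T cell RNA, so the level may be understated. A Havcr2 UMI was found in 1.23% to 4.17% of these B cells. Their median depths were 5029 to 6447 UMIs, against 5544 to 7378 in the nondividing CD8 T cells. CD4 T cells were at 34.3% to 45.5%, and dividing CD8 T cells, which were deeper, at 55.7% to 73.9%. Myeloid cells also hold Havcr2 RNA, and 34.0% to 60.5% of them had a UMI. Among CD8 T cells with none of the 4 myeloid genes the share was 50%, 39.5%, 53.2%, 48.3%, 52.2% and 51.8% in the order above, and 2366 members (75.6%) were such cells.

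Havcr2 and Tcf7 rarely met in a cell. Among nondividing CD8 T cells with a Tcf7 UMI, 1 of 18 in control and 12 of 177 under 2DG (6.78%) had a Havcr2 UMI, with 10.4%, 12.1%, 14.0% and 11.2% in the remaining libraries. Among those without Tcf7 the share was 46.8% to 61.0%. The interval of the 2DG library (3.55% to 11.5%) overlapped those of the 4 libraries above it.

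Other inhibitory receptors were counted together with Havcr2 in the same cells. These genes were not part of the rule, so the share of cells with a UMI was compared between populations within each mouse, by a two-sided exact sign-flip permutation test over the 6 libraries whose smallest possible p is 0.03125. All 8 comparisons (4 receptors, each against both Havcr2-negative populations) reached that p, which was 0.03125 after adjustment too, with the members higher in 6 of 6 libraries. Selection on a Havcr2 UMI favours deep cells, and the members were deeper than the double-negative cells in every library, so differences thinned to 2000 UMIs are given beside these.

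LAG-3, which binds MHC class II and restrains T cell activation, separated the populations furthest. A Lag3 UMI was found in 54.0%, 74.9%, 80.8%, 76.0%, 75.0% and 77.6% of the members. The Tcf7-positive Havcr2-negative cells held it in 13.8% to 20%, and the double-negative cells in 19.4% (control) to 56.8% (2FF). The members' lowest library lay above every library of the first population and overlapped the second only through control. The mean difference was 55.7 ± 10.0 percentage points (SD over 6 libraries) against Tcf7-positive Havcr2-negative cells and 30.3 ± 3.55 against double-negative cells, and 37.4 and 18.7 when thinned.

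For Pdcd1, the gene of PD-1, the receptor of PD-L1, the members held a UMI in 62.0%, 64.9%, 68.3%, 73.1%, 71.9% and 66.8% of cells. The ranges of the other populations, 17.6% to 31.1% and 44.4% to 51.4%, did not overlap these. The differences were 42.7 ± 3.54 and 18.9 ± 3.27 points, or 23.2 and 8.02 thinned. Ctla4, whose product competes with CD28 for B7 ligands, was counted in 84.1% to 95.8% of the members, 47.1% to 77.0% of Tcf7-positive Havcr2-negative cells and 61.1% to 78.9% of double-negative cells, with no overlap of the members (28.4 ± 7.98 and 16.7 ± 4.50 points, or 28.1 and 12.6 thinned).

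TIGIT, a receptor for CD155, differed least. Its gene was counted in 34.5% to 44.2% of the members, 17.0% to 32.8% of Tcf7-positive Havcr2-negative cells and 16.7% to 37.8% of double-negative cells. The difference from Tcf7-positive Havcr2-negative cells, 15.8 ± 3.42 points, dropped to 5.84 points after thinning. The difference from double-negative cells, 10.9 ± 4.58 points, dropped to 1.52 points, higher in 5 of 6 libraries (exact p = 0.0625). The other 7 comparisons kept an exact p of 0.03125 when thinned (adjusted exact p = 0.0357).

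At least 3 of these 4 receptors were counted in 52.0%, 57.8%, 65.1%, 63.4%, 69.7% and 65.1% of the members. In double-negative cells this was 11.1% in control and 35.8% to 40.8% elsewhere, and in Tcf7-positive Havcr2-negative cells 5.88% to 16.8%. These shares were not thinned, and they move with depth.

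**Figure D2:**
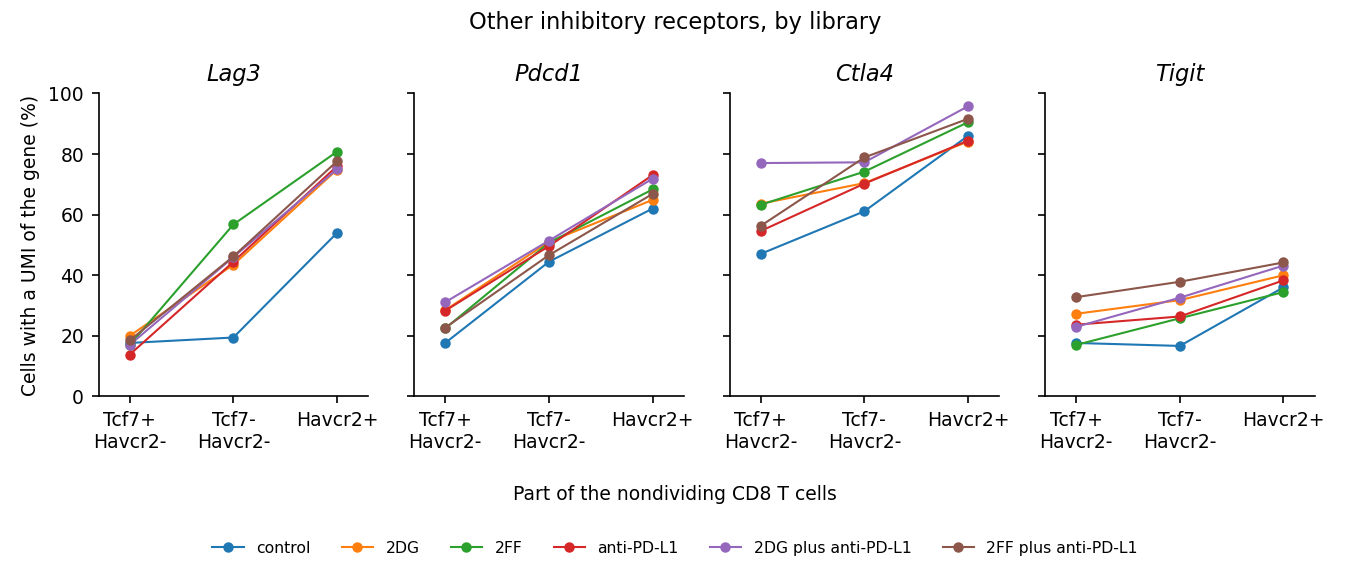
Share of cells with a UMI (y axis, %) of Lag3, Pdcd1, Ctla4 and Tigit in the 3 CD8 populations (x axis), 1 line per library. Each line is highest in the Havcr2-positive cells, and Lag3 climbs most, from 13.8% to 20% in Tcf7-positive Havcr2-negative cells to 54.0% to 80.8%.

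To see the rest of the transcriptome, the counts of each population were summed in each library and compared within libraries with edgeR's quasi-likelihood test, with the library as a block and Benjamini-Hochberg adjustment over all genes tested. Levels are given below in CPM (the UMIs of a gene scaled to the total UMIs of its sum), as mean ± SD over 6 libraries. The genes of the rule were not tested, and Tcf7, which sorts the other populations, was left out as well. Over Tcf7-positive Havcr2-negative cells, 1484 of 11383 genes were higher (13%) and 1408 lower (12.4%) at an adjusted p under 0.05. Over double-negative cells 907 of 11813 were higher (7.68%) and 847 lower (7.17%), and with no library block 311 genes in all passed that second comparison. With cells thinned to 2000 UMIs, 1859 genes in all passed the first comparison, of 2892 unthinned, and 984 the second, of 1754. All gene by gene statements carry those tests, and called means an adjusted p under 0.05. Counts of called list genes below stand against these shares of all genes, and no count was tested against them.

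Of 14 inhibitory receptor genes tested, 9 were higher and 1 lower than in Tcf7-positive Havcr2-negative cells (median log2 fold change 0.76, against 0.02 over all genes), and 6 higher and 2 lower than in double-negative cells (median 0.09, against 0.00). Lag3 stood at 279, 375, 500, 413, 382 and 351 CPM in the members. It was at 46.3 ± 15.9 CPM in Tcf7-positive Havcr2-negative cells and 203 ± 90.4 in double-negative cells, with log2 fold changes of 2.94 (SE 0.13, edgeR adjusted p = 3.28e-11) and 0.83 (SE 0.07, adjusted p = 8.53e-09). Control was the lowest library of the members and 2FF the highest, and only the 2FF double-negative cells, at 336 CPM, came into the members' range.

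Entpd1, which encodes CD39, the ectoenzyme that breaks down extracellular ATP and marks terminally exhausted cells, was at 322, 304, 365, 327, 290 and 368 CPM in the members. Its level was 46.8 ± 17.8 CPM in Tcf7-positive Havcr2-negative and 199 ± 21.9 in double-negative cells (log2 fold changes 2.67 and 0.73, edgeR adjusted p = 6.44e-11 and 7.89e-10). The 3 ranges did not overlap, and the members varied little between treatments. Pdcd1 was at 250 ± 51.7 CPM, with log2 fold changes of 1.56 and 0.38, and was lower in control members (179 CPM) than in control double-negative cells (187 CPM).

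Cd244a (2B4) and Klrc1 (NKG2A), both receptors shared with NK cells, rose in both comparisons, by 1.62 and 0.41 and by 0.93 and 0.43 on the log2 scale. Ctla4 did so as well, by 1.02 and 0.27. Tigit was called against Tcf7-positive Havcr2-negative cells (log2 fold change 0.59) and not against double-negative cells (0.05 ± 0.07 SE, adjusted p = 0.708 by edgeR). Btla, a receptor for HVEM found on less differentiated T cells, went the other way. It was at 10.2 to 21.7 CPM in the members, 66.5 ± 17.4 in Tcf7-positive Havcr2-negative and 19.2 ± 5.11 in double-negative cells, lower in 6 of 6 libraries in both comparisons (log2 fold changes -2.47 and -0.67).

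**Figure D3:**
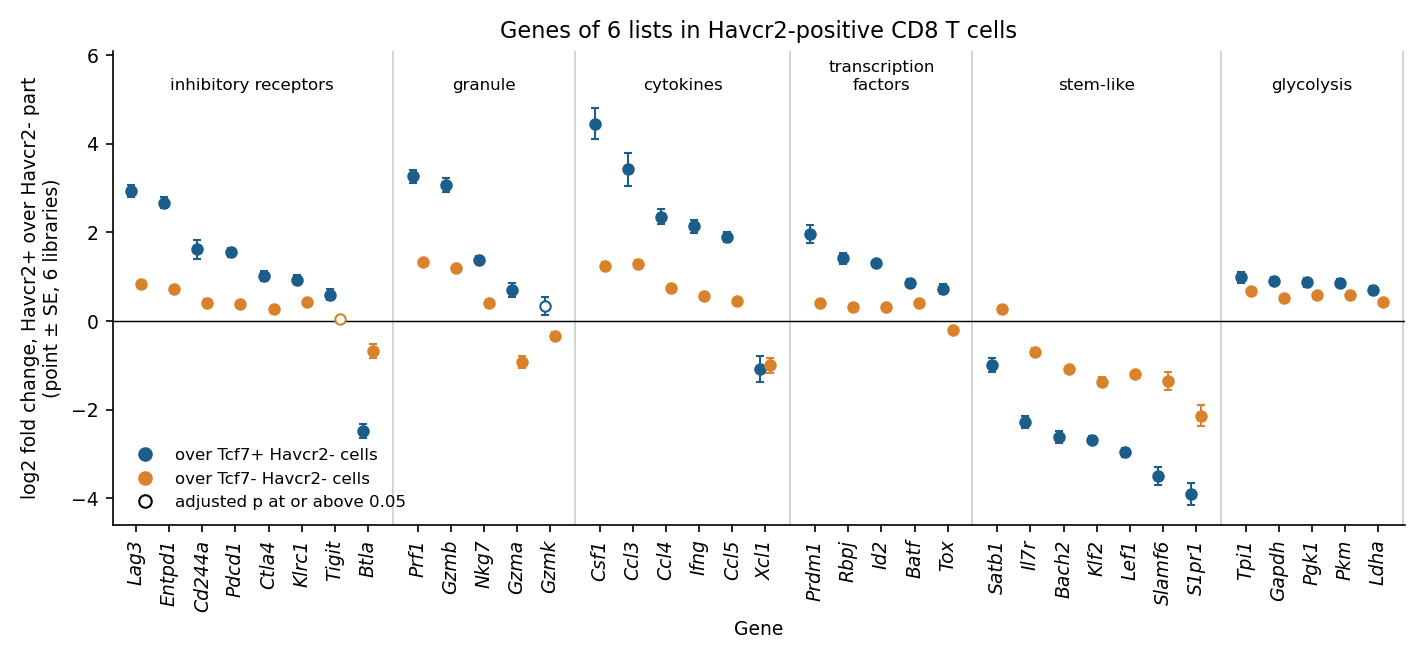
Log2 fold change with its standard error (y axis) of selected list genes (x axis) in Havcr2-positive cells, over Tcf7-positive Havcr2-negative cells (blue) and over double-negative cells (orange). Open symbols did not pass an adjusted p of 0.05, as for Tigit over double-negative cells (0.05). Prf1, Gzmb and Ccl3 lie above the zero line in both colours, and the stem-like genes other than Satb1 lie below it in both.

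The transcription factors tied to exhaustion were divided. Of 15 tested, 8 were higher and 2 lower than in Tcf7-positive Havcr2-negative cells (13% and 12.4% of all genes). Over double-negative cells 5 were higher and 3 lower (7.68% and 7.17% of all genes). Prdm1 (BLIMP-1, a repressor of memory genes) rose by 1.97 and 0.41 on the log2 scale, Id2 by 1.30 and 0.31, Batf (an AP-1 partner) by 0.86 and 0.42, and Rbpj (the Notch effector) by 1.42 and 0.31. Tox, which installs the exhausted chromatin state, was at 1576, 1553, 1311, 1539, 1345 and 1644 CPM in the members, 892 ± 264 in Tcf7-positive Havcr2-negative cells and 1708 ± 195 in double-negative cells. It was thus higher than in the former (log2 fold change 0.73) and lower than in the latter in 6 of 6 libraries (-0.19, adjusted p = 0.00355 by edgeR). That second call was lost when cells were thinned (-0.07). Of the Nr4a factors induced by the T cell receptor, Nr4a2 rose (0.86 and 0.21) while Nr4a3 fell (-0.72 and -0.34), and control was the lowest library of the members for Nr4a3, at 43.3 CPM against 116 to 277.

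Most genes of stem-like and memory cells were lower. All 16 tested fell against Tcf7-positive Havcr2-negative cells (median log2 fold change -2.69), a population that was itself chosen on Tcf7. Against double-negative cells, which lack Tcf7 UMIs by definition, 10 of 15 fell and 1 rose (median -0.69). Lef1, the partner of TCF-1, was at 127 CPM in control members and 43.2 to 55.2 elsewhere, with 489 ± 249 in Tcf7-positive Havcr2-negative and 144 ± 66.8 in double-negative cells (log2 fold changes -2.96 and -1.20). Slamf6 (Ly108, log2 fold changes -3.50 and -1.36), Bach2, a repressor that holds T cells in a memory state (-2.62 and -1.09), and Il7r, the survival receptor for IL-7 (-2.28 and -0.69), fell as well. So did Klf2 (-2.68 and -1.36) and its target S1pr1 (-3.90 and -2.13), which lets T cells leave tissue.

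Satb1, a chromatin organiser of T cells, was the member of the list that rose over double-negative cells. It was at 165, 244, 392, 351, 576 and 462 CPM in the members, lowest in control and highest under the 2DG combination. It was higher than in double-negative cells (301 CPM, log2 fold change 0.28) and lower than in Tcf7-positive Havcr2-negative cells (754 CPM, -0.99).

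Killing genes set the members apart from both other populations. Of 16 granule genes tested, 9 were higher and 2 lower over Tcf7-positive Havcr2-negative cells (13% and 12.4% of all genes). Over double-negative cells 9 were higher and 4 lower (7.68% and 7.17% of all genes). Prf1, the gene of perforin, stood at 506, 604, 1033, 825, 676 and 607 CPM. In Tcf7-positive Havcr2-negative cells it was at 67.9 ± 34.0 CPM and in double-negative cells at 274 ± 70.2, with no overlap (log2 fold changes 3.27, SE 0.15, and 1.33, SE 0.05, edgeR adjusted p = 2.86e-11 and 1.92e-13). Gzmb, the protease that starts apoptosis in the target, stood at 683, 649, 1302, 671, 883 and 945 CPM, against 99.0 ± 55.4 and 352 ± 156 (log2 fold changes 3.07 and 1.19). For both genes 2FF was the highest library of the members. Nkg7, a granule membrane protein, rose by 1.37 and 0.41.

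The other granzymes did not follow. Gzma was counted in 430 members, at 314 ± 123 CPM, above Tcf7-positive Havcr2-negative cells (178 CPM, log2 fold change 0.70) and below double-negative cells (532 ± 297 CPM, -0.93, lower in 5 of 6 libraries). In control the order was the reverse of the other libraries, with 268 CPM in the members and 42.3 in double-negative cells. Gzmk, a granzyme of early effector and memory cells, was at 157 CPM in control members and 59.6 to 73.3 elsewhere, which was lower than in double-negative cells (-0.33) and not called against Tcf7-positive Havcr2-negative cells (0.34, adjusted p = 0.251 by edgeR). Gzmm fell in both (-2.52 and -1.01). The granzymes of the Gzmc to Gzmf group came from very few cells. Gzmd had 758 UMIs in 32 members, Gzme 587 in 27, and Gzmf 772 in 31, none of the Gzmd or Gzme UMIs being in the control or the 2FF combination members, whereas all 2343 double-negative cells together held 6, 1 and 3.

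Among 12 cytokine and chemokine genes tested, 5 rose and 2 fell in both comparisons. The shares of all genes were 13% and 12.4% in the first and 7.68% and 7.17% in the second. The chemokine gene Ccl3, whose product attracts myeloid cells and T cells, was at 214, 566, 1028, 482, 982 and 1017 CPM in the members. The double-negative cells held 310 ± 144 CPM and the Tcf7-positive Havcr2-negative cells 82.8 CPM (log2 fold changes 1.29 and 3.42), and control was the lowest of the member libraries, near its own double-negative (193 CPM) and Tcf7-positive Havcr2-negative (201 CPM) cells. Ccl4 (2198 ± 793 CPM, log2 fold changes 2.36 and 0.75) and Ccl5 (9348 ± 1613 CPM, 1.90 and 0.46) behaved alike.

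Ifng, the gene of interferon-gamma, was at 276, 610, 789, 642, 751 and 775 CPM, against 142 ± 66.5 in Tcf7-positive Havcr2-negative and 431 ± 131 in double-negative cells (log2 fold changes 2.14 and 0.57, edgeR adjusted p = 6.13e-09 and 2.58e-08). Control members again were lowest, and only they overlapped the double-negative range. Csf1, the macrophage growth factor, was at 46.0, 57.6, 124, 57.8, 141 and 80.3 CPM, 34.3 CPM in double-negative and 4.25 CPM in Tcf7-positive Havcr2-negative cells (log2 fold changes 1.25 and 4.46). Xcl1, which attracts cross-presenting dendritic cells, fell in both (-1.08 and -1.0) and was counted in 156 members.

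Of 11 costimulatory genes, 5 rose and 1 fell over Tcf7-positive Havcr2-negative cells (13% and 12.4% of all genes). Over double-negative cells 6 rose and 2 fell (7.68% and 7.17% of all genes). Tnfrsf9 (4-1BB), induced by antigen, was at 260 ± 64.3 CPM in the members, 50.3 in Tcf7-positive Havcr2-negative and 135 in double-negative cells (log2 fold changes 2.25 and 0.90). Icos rose by 0.79 and 0.55. Cd28, the receptor that CTLA-4 outcompetes, fell by 0.63 and 0.34 on the log2 scale.

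Of 16 residency and homing genes, 7 rose and 4 fell over Tcf7-positive Havcr2-negative cells (13% and 12.4% of all genes). Over double-negative cells 4 rose and 4 fell (7.68% and 7.17% of all genes). The chemokine receptors split. Cxcr6 (log2 fold changes 1.59 and 0.35), found on effector cells in tissue, rose. Cxcr3 (-1.95 and -1.02), which follows interferon-induced chemokines, and Cxcr4 (-1.33 and -0.85) fell, and so did the early activation marker Cd69 (-0.78 and -0.54).

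Of 13 early T cell receptor response genes, 1 was higher and 5 lower in the first comparison (13% and 12.4% of all genes). In the second, 2 were higher and 6 lower (7.68% and 7.17% of all genes). Junb fell by 0.46 and 0.35, the NF-kappaB inhibitor Nfkbia by 0.70 and 0.29 and the phosphatase Dusp2 by 0.28 and 0.44 on the log2 scale. Of 6 tested genes of TIM-3 ligands and partners, 1 was called in each comparison, and it was Fyn, which fell by 0.28 and 0.33. Lgals9, the gene of galectin-9, was at 55.8 CPM in the members, 69.9 in Tcf7-positive Havcr2-negative and 62.2 in double-negative cells and was called in neither comparison (adjusted p = 0.0905 and 0.906 by edgeR). Of the NK-type receptor genes, 3 of 10 rose and 1 fell in the first comparison, and 3 of 11 rose and 4 fell in the second. Klrd1 (CD94), the partner of NKG2A, rose by 1.04 and 0.35, and Klrb1c (NK1.1) fell by 1.15 and 1.41.

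The agents of the study are a glucose analog and a fucose analog given against glycan synthesis, so the genes of glycolysis and of glycan synthesis were counted. Glycolysis was higher in the members than in either population, with 11 of 15 genes higher and 1 lower over Tcf7-positive Havcr2-negative cells (median log2 fold change 0.70) and 10 higher and none lower over double-negative cells (median 0.40). Gapdh stood at 945, 798, 978, 848, 753 and 799 CPM in the members, at 456 ± 107 CPM in Tcf7-positive Havcr2-negative cells and at 575 ± 72.7 in double-negative cells. No library overlapped (log2 fold changes 0.91 and 0.53, edgeR adjusted p = 6.95e-08 and 3.49e-08). Tpi1 (0.98 and 0.69), Pgk1 (0.87 and 0.58), Pkm (0.86 and 0.60) and Ldha (0.70 and 0.42), enzymes of the lower pathway and of lactate formation, rose too, as did the glucose transporter gene Slc2a3 (0.77 and 0.40).

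The glycan enzymes were mixed, with 4 of 18 higher and 5 lower in the first comparison (13% and 12.4% of all genes). In the second, 2 were higher and 4 lower (7.68% and 7.17% of all genes). The sialyltransferase gene St6gal1 was at 4.11 CPM in the members and at 75.1 CPM in Tcf7-positive Havcr2-negative cells (-4.28). It was at 6.59 CPM in double-negative cells (-1.10, adjusted p = 0.0486 by edgeR). B4galt1, a galactosyltransferase, fell by 0.78 and 0.46. Mgat5, which makes the branch of N-glycans that galectins bind, was at 262 ± 31.4 CPM in the members and 379 in Tcf7-positive Havcr2-negative cells (-0.58), and was not called against double-negative cells (276 CPM, -0.16, adjusted p = 0.0516 by edgeR). The core fucosyltransferase gene Fut8 was higher by 0.28 and 0.23, and Fut7, needed for selectin ligands, by 2.16 and 1.17, from 94 UMIs in 87 members.

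Interferon-stimulated genes numbered 4 higher and 0 lower of 19 in the first comparison and 1 higher and 2 lower in the second. Of all genes, 13% were higher and 12.4% lower in the first, and 7.68% and 7.17% in the second. No difference from these shares was tested for these counts or for those of the cell cycle and heat shock genes. Rsad2 was called higher in both (1.45 and 0.99), but with doublet-marked cells left out it was at -0.16 and -0.19. Cell cycle genes other than those of the rule numbered 1 higher of 15 in each comparison, with 1 lower in the second. Mcm6, a replication helicase subunit, was called in both (0.86 and 0.20). Of 12 dissociation and heat shock genes, 1 was higher and 3 lower in the first comparison, and 1 was higher and 1 lower in the second.

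By a rule of size (the 10 largest called fold changes in each direction among genes of at least 50 CPM in the higher population and of 1 direction in 6 of 6 libraries), further genes were named. Higher over Tcf7-positive Havcr2-negative cells were Ptpn5 (4.66 on the log2 scale), Csf1, the glutamate transporter gene Slc17a6 (4.35), Wscd2 (4.31), Adgrg1 (GPR56, found on cytotoxic cells, 3.68), the unconventional myosin gene Myo10 (3.57), Serpine2, a serine protease inhibitor (3.49), Ccl3, Filip1 (3.36) and Prf1. Apart from Adgrg1 (0.66), each also rose by more than 1 on the log2 scale over double-negative cells. There Serpine2 led, at 138, 110, 193, 123, 182 and 158 CPM in the members and 26.8 ± 18 in double-negative cells (2.36). It was followed by the chemokine gene Ccl9 (2.04), by Myo10 (127, 185, 449, 403, 421 and 366 CPM, against 90.3, 1.83) and by Tff1 (1.34). Myo10 was lower in control and 2DG members than in the other 4 libraries.

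On the lower side, Aff3 (-4.33), Cmah (-4.18), Fgf13 (-3.63), Fhit (-3.60), Pde2a (-3.53), Slamf6, the CD30 ligand gene Tnfsf8 (-3.45), Sidt1 (-3.12), Lef1 and Fam241a (-2.64) headed the first comparison. Against double-negative cells they were Fgf13 (-1.59), Lrig1 (-1.53), Trat1 (-1.51), Aff3 (-1.5), Samd3 (-1.38), Evl (-1.25), Lef1, Sidt1 (-1.19), the mRNA decay factor gene Zfp36l2 (-1.16) and Bcl2 (-1.16). Bcl2, which blocks apoptosis, was at 626 CPM in control members and 167 to 330 elsewhere, with 579 CPM in double-negative and 1172 in Tcf7-positive Havcr2-negative cells.

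Some of these calls lapsed when 1 library was left out, most with the fold change little altered. Over Tcf7-positive Havcr2-negative cells, the call of Fyn was lost without 2DG (-0.25, adjusted p = 0.0547 by edgeR) and that of Xcl1 without 2FF (-0.95, adjusted p = 0.0736 by edgeR). Leaving out 2DG or anti-PD-L1 lost Fut7 (1.76 and 1.82) and Fut8 (0.26 and 0.25), leaving out any treated library but 2FF lost Dusp2 (-0.26 to -0.21), and leaving out 2FF, anti-PD-L1 or the 2DG combination lost Klrb1c (-1.14 to -0.89). Over double-negative cells, the calls of Btla (-0.49) and Gzmk (-0.23) were lost without the 2DG combination. Leaving out any treated library but anti-PD-L1 lost Fut7 (1.01 to 1.15), and leaving out anti-PD-L1 or either combination lost Fut8 (0.19 to 0.20). Leaving out any treated library but the 2DG combination lost Gzmm (-0.99 to -0.85) and St6gal1 (-1.29 to -0.80). Leaving out any treated library but the 2FF combination lost Mcm6 (0.20 in each), and leaving out 2FF, anti-PD-L1 or the 2FF combination lost the macrophage marker Mrc1 (0.70 to 0.95).

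Markers of other cell types were summed in the same libraries. The 12 macrophage markers reached 1032, 1107, 1257, 1223, 975 and 1017 CPM in the members, against a mean of 462 in Tcf7-positive Havcr2-negative cells, 685 in double-negative cells and 6169 in cells outside the T cell gate. None of the 12 was at 0, and Ctsd, a lysosomal protease gene counted in 2884 members, gave most of the sum. Of the list, 4 of 10 tested were higher in the first comparison (13% of all genes) and 6 of 11 in the second (7.68%), none lower. In cells that held none of the 4 myeloid genes the sums were 1003, 351 and 667 CPM. Spp1 (osteopontin) was at 228, 57.0, 183, 77.9, 72.8 and 100 CPM in 472 members and at 24.0 CPM in double-negative cells (2.44), and Mrc1 at 12.8 and 6.53 CPM (1.02). The Mrc1 difference over double-negative cells was -0.21 in cells with no myeloid UMI and -0.53 without doublet-marked cells. Doublets were marked in 5.41% to 6.1% of the members and 1.35% to 5.66% of the Havcr2-negative cells by library. Apart from those values, the part of other cells in these differences was not tested.

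The 11 dendritic markers came to a mean of 739 CPM in the members, 662 in Tcf7-positive Havcr2-negative and 773 in double-negative cells, and Cd74 led them. Without doublet-marked cells these means were 280, 450 and 285 CPM. Control alone carried the second of these (1568 CPM), and in the other 5 libraries the Tcf7-positive Havcr2-negative cells, at 163 to 318 CPM, lay below the members each time (219 to 424 CPM). The 7 neutrophil markers came to 460, 85.9 and 432 CPM, led by Il1r2, which T cells also express, and reached 1831 CPM in control members. Without the 3 doublet-marked control members that value was 163 CPM, and in control members with 0 myeloid UMIs it was 173 CPM. The double-negative mean rested on control as well, at 1893 CPM there, 1332 without doublet-marked cells and 1000 with 0 myeloid UMIs. Erythroid and platelet markers (6 genes, led by Hbb-bs) were at 374 CPM in control members, 152 under anti-PD-L1 and at most 6.69 elsewhere. The 6 NK and gamma-delta markers came to 53.8, 39.3 and 66.2 CPM. B cell markers (9.02 CPM) and tumor and stroma markers (5.58 CPM, with Cldn4 at 0) were near absent in the members. In the Tcf7-positive Havcr2-negative and double-negative cells the B cell markers came to 51.3 and 9.54 CPM. Both B cell markers tested in the first comparison were called lower in the members (median -2.69). The part of B cells in other differences from that population was not tested. The 6 CD4 and regulatory T cell markers outside the rule came to 259, 172 and 284 CPM, again led by Il1r2.

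Within the members, Prf1, Ifng, Ccl3 and Lag3 were higher where Havcr2 was higher. Cells with 1 UMI, with 2 or 3, and with at least 4 were summed apart in each library, and since depth helps decide the class, the values are given as a description. Ccl3 averaged 444, 543 and 1042 CPM over the libraries in these classes, Prf1 444, 633 and 974, Ifng 478, 608 and 782, Entpd1 269, 299 and 401, and Lag3 308, 360 and 461, each higher in the top class than in the bottom one in 6 of 6 libraries. Gzmb (582, 794 and 1112) was higher in 5 of 6. Slamf6 (18.6, 8.81 and 6.73), Tcf7 (18.5, 6.77 and 3.02) and Cxcr3 (31, 12.6 and 7.5) were lower in 6 of 6. Pdcd1 went from 221 to 270 CPM, while Ctla4 (789, 797 and 797) was higher in 2 of 6 libraries. Gzmk (92.9, 86.3 and 68.1) was higher in 1 of 6. Tox (1518, 1478 and 1491) went opposite ways, from 845 to 2178 CPM in control and downward in the other 5 libraries, as from 1796 to 1349 under 2DG and 1465 to 1126 under 2FF. Cd74 (138, 236 and 302) and Ctsb (177, 198 and 229) were also higher in the top class in 6 of 6 libraries, and their part in the other differences was not tested.

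The share of T cell receptor V beta genes was read as a coarse measure of clonal spread in cells with UMIs of exactly 1 Trbv gene. There were 13, 91, 101, 108, 147 and 98 such members, and 6, 116, 86, 106, 103 and 49 such Havcr2-negative CD8 T cells. The effective number of Trbv genes (1 over Simpson's index) was 11.1, 7.21, 9.47, 14.0, 13.3 and 9.7 in the members and 15.0, 9.37, 9.67, 9.38, 11.2 and 12.9 in the Havcr2-negative CD8 T cells. The members were lower in 4 of 6 libraries and higher in both libraries of anti-PD-L1 alone and the 2DG combination. Control is among the 4, and its 15.0 came from 6 Havcr2-negative cells that held 5 Trbv genes. The mean log2 ratio was -0.07 ± 0.42 (two-sided exact sign-flip permutation p = 0.6875), so no difference was detectable with these few cells. Where at least 2 UMIs of the Trbv gene were asked for, 3 libraries could be compared. They held 19 members against 18 Havcr2-negative cells (2DG), 15 against 8 (anti-PD-L1) and 25 against 9 (the 2DG combination). The members were lower in 3 of 3 (mean log2 ratio -0.49 ± 0.13, exact permutation p = 0.25, the smallest that 3 libraries allow). The 8 Havcr2-negative cells under anti-PD-L1 held 7 Trbv genes and gave an effective number of 28. With so few cells the index is unstable, and no conclusion is drawn from this setting. Under anti-PD-L1 and the 2DG combination its direction was opposite to that with at least 1 UMI. Trbv13-3 was the leading gene in the 2DG members, with 30 of 91 cells (33.0%, interval 23.5% to 43.6%), and was also first in the members under 2FF (19.8%), anti-PD-L1 (14.8%) and the 2FF combination (22.4%). It led the Havcr2-negative cells under 2DG (23.3%) and in the 2DG combination (17.5%) as well. Trbv19 led under the 2DG combination (12.9%).

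**Figure D4:**
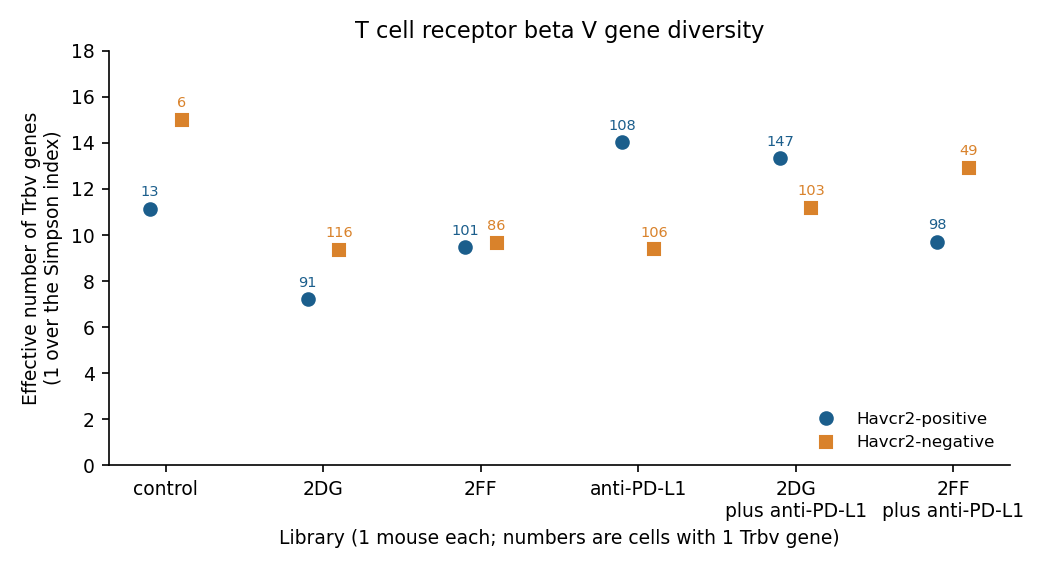
Effective number of Trbv genes (y axis, 1 over Simpson's index) in each library (x axis), for Havcr2-positive cells (circles) and Havcr2-negative CD8 T cells (squares), with the number of cells that held exactly 1 Trbv gene. Neither population is higher throughout: the circles lie below the squares in 4 of 6 libraries.

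Between single groups, each of 1 mouse, the Havcr2-positive cells were compared by value and not tested, and the comparisons of 2DG and of 2FF share the same control mouse and the same anti-PD-L1 mouse. Differences are on a log2(CPM + 5) scale, and a gene needed at least 50 UMIs in a pair. A gene was counted where it differed by 1.5-fold or more. Against control, 2DG had 849 of 6878 genes higher (12.3%) and 550 lower (8%), 2FF 1414 of 8495 higher (16.6%) and 756 lower (8.9%), and anti-PD-L1 1235 of 7903 higher (15.6%) and 695 lower (8.79%). Those 3 comparisons rest on 50 control cells. Against anti-PD-L1, the 2DG combination had 343 of 9382 higher (3.66%) and 303 lower (3.23%), and the 2FF combination 185 of 8959 higher (2.06%) and 212 lower (2.37%). With a pseudocount of 20 CPM in place of 5 these came to 155 higher and 72 lower for 2DG and 71 and 47 for 2FF, so the balance of the latter turned. It also cut the totals against control from 1399 to 682 (2DG), 2170 to 967 (2FF) and 1930 to 905 (anti-PD-L1), and those against the agent alone from 643 to 266 and from 310 to 86. Against the agent alone, the 2DG combination had 370 of 8994 higher (4.11%) and 273 lower (3.04%), and the 2FF combination 91 of 9284 higher (0.98%) and 219 lower (2.36%).

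The median of the cytokine list lay above control in the 3 libraries of a single agent. Of 8 genes compared, 3 were past 1.5-fold higher and 1 lower under 2DG (median 0.54), 7 and 0 under 2FF (median 1.37), and 3 and 0 under anti-PD-L1 (median 0.46), against all-gene medians of 0.03, 0.05 and 0.05. Of all genes, 12.3%, 16.6% and 15.6% were higher and 8%, 8.9% and 8.79% lower. In the Havcr2-negative CD8 T cells the medians of the list over control were 0.70, 1.27 and 0.99. Ifng, given above per library, lay 1.13, 1.5 and 1.2 above control on the log2 scale, and the 5 treated libraries lay between 610 and 789 CPM. The 2DG combination lay 0.30 above 2DG alone and the 2FF combination -0.02 from 2FF alone. The combinations lay 0.22 and 0.27 above anti-PD-L1 alone. Ccl3 lay 1.02 (the 2DG combination) and 1.07 (the 2FF combination) above anti-PD-L1 alone, 0.79 above 2DG alone and -0.02 from 2FF alone, with 1017 CPM in the 2FF combination and 1028 under 2FF. Csf1 was higher in the 2DG combination (141 CPM) and 2FF (124 CPM) than in 2DG (57.6 CPM) and anti-PD-L1 (57.8 CPM).

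Granule genes were higher in 4, 10 and 8 of 15 under 2DG, 2FF and anti-PD-L1 over control, with 2 lower in each. In these comparisons 12.3%, 16.6% and 15.6% of all genes were higher and 8%, 8.9% and 8.79% lower. Over anti-PD-L1, 1 was higher and 2 lower of 15 in the 2DG combination (median -0.14) and 0 and 3 in the 2FF combination (median -0.02). Over the agent alone these were 1 and 3 (median 0.03) and 0 and 5 (median -0.29), and Gzmd and Gzme, which few members held, were among the lower genes of both. Of all genes, 3.66% and 2.06% were higher and 3.23% and 2.37% lower over anti-PD-L1, and 4.11% and 0.98% higher and 3.04% and 2.36% lower over the agent alone. Gzmb was 0.93 above control under 2FF, -0.07 from it under 2DG and -0.02 under anti-PD-L1. Gzmk was lower than control in all 3 (-1.14, -1.05 and -1.19), where the 157 CPM of control came from 50 cells. Gzma, at 552 CPM under 2FF and 233 under the 2FF combination, was among the genes furthest down in that pair (-1.23).

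Of the inhibitory receptor genes, 0 of 12 were higher and 1 lower under 2DG than in control, 3 of 14 and 1 under 2FF, and 1 of 13 and 2 under anti-PD-L1, where 12.3%, 16.6% and 15.6% of all genes were higher and 8%, 8.9% and 8.79% lower. Of 14 compared, 1 was higher and 1 lower in the 2DG combination than under anti-PD-L1 (3.66% and 3.23% of all genes). In it 2 were higher and 2 lower than under 2DG (4.11% and 3.04% of all genes). None was past 1.5-fold between the 2FF combination and either of its single agents, where few of all genes were (2.06% higher and 2.37% lower, and 0.98% and 2.36%), so that count is near the background. Pdcd1 was at 179 CPM in control and highest under anti-PD-L1 (318 CPM, 0.81), and the 2FF combination (216 CPM) lay 0.54 under that. Ctla4 was highest under the 2DG combination (1013 CPM), which lay 0.76 above both 2DG and anti-PD-L1, and control followed at 913 CPM.

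**Figure D5:**
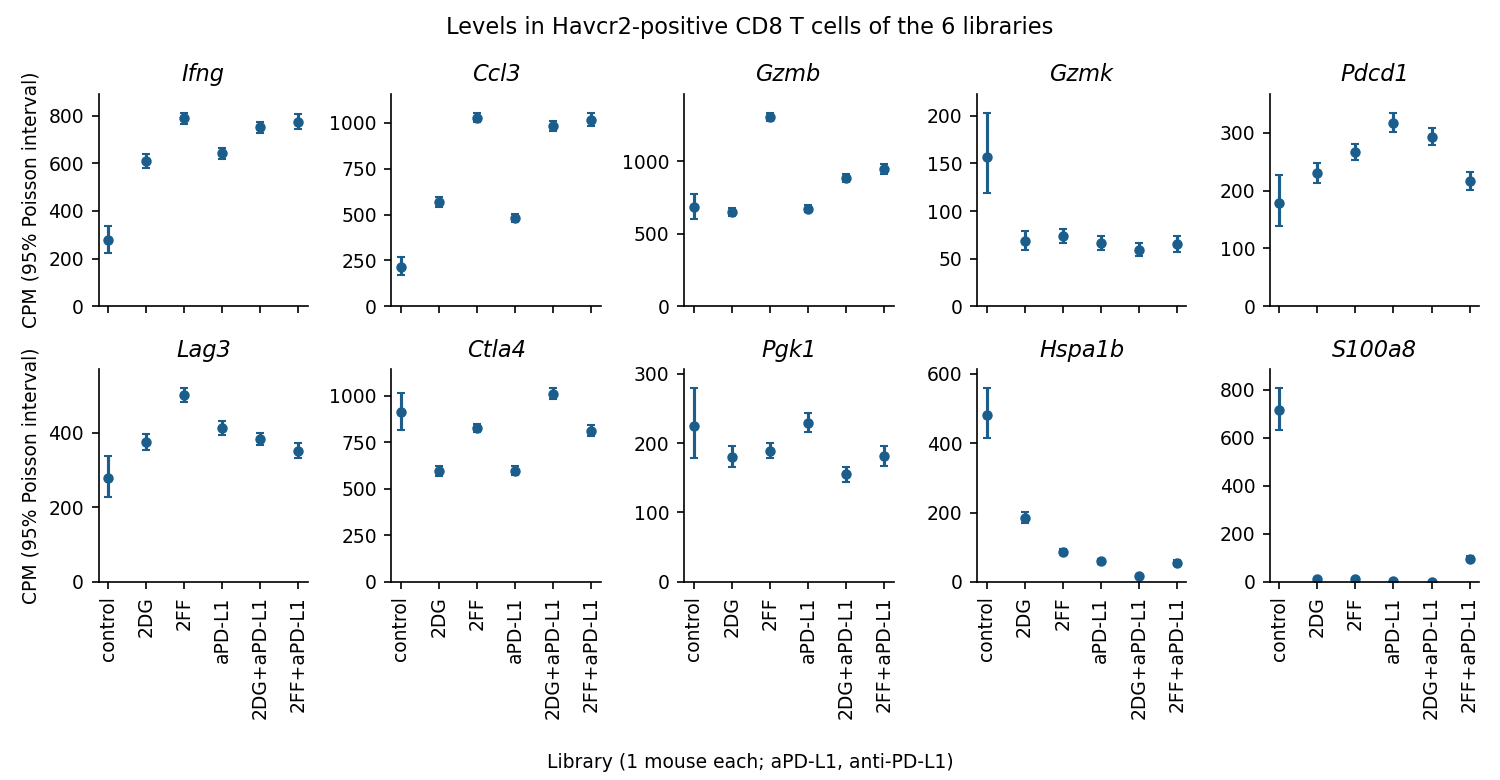
Level (y axis, CPM, with 95% Poisson intervals for counting error only) of Ifng, Ccl3, Gzmb, Gzmk, Pdcd1, Lag3, Ctla4, Pgk1, Hspa1b and S100a8 in the Havcr2-positive cells of each library (x axis). Ifng is lowest in control (276 CPM), while Gzmk, Hspa1b and S100a8 are highest there. The intervals are widest in control, which has 50 cells.

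Early T cell receptor genes stood higher in the 2DG combination than in 2DG, with 9 of 13 past 1.5-fold and none lower (median 0.82). There 4.11% of all genes were higher and 3.04% lower. Over anti-PD-L1, 5 of 13 were higher in it (median 0.32), against 3.66% of all genes. In the Havcr2-negative CD8 T cells the medians of the list for the 2DG combination were 0.62 over 2DG and 0.40 over anti-PD-L1. The 2FF combination had a like median over anti-PD-L1 (0.34), with 1 of 13 higher and 1 lower, where 2.06% and 2.37% of all genes were. Its median in the Havcr2-negative cells was 0.06. Over control, 1 of 10 was higher and 2 lower under 2DG, 7 of 13 and 0 under 2FF, and 6 of 13 and 1 under anti-PD-L1. The shares of all genes there were 12.3%, 16.6% and 15.6% higher and 8%, 8.9% and 8.79% lower. Junb was at 490, 593, 910, 614, 1216 and 874 CPM and Nfkbia at 168, 225, 303, 280, 449 and 404 CPM. In both the 2DG combination library was highest and control lowest. In the 2FF pair, 0 of 13 were higher and 2 lower with anti-PD-L1 (median -0.00), where 0.98% and 2.36% of all genes were.

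Glycolysis genes differed by less than 1.5-fold in all 4 comparisons of a combination with a single agent (0 of 15 in each), where the shares of all genes given above would put less than 2 of 15 past it. Under 2DG 1 was higher and 2 lower than in control (median -0.26), where 12.3% and 8% of all genes were. In the combinations their medians were -0.33 (the 2DG combination) and -0.20 (the 2FF combination) against anti-PD-L1 and -0.14 and -0.13 against the agent alone, where the all-gene medians lay between -0.05 and -0.01. Pgk1 was at 225, 180, 189, 229, 155 and 181 CPM, highest in control and anti-PD-L1 and lowest in the 2DG combination. The glucose transporter gene Slc2a1 was at 108 CPM in control and 42.9 to 64.3 elsewhere. Of the glycan enzymes, 2 of 14 were lower in the 2DG combination than in anti-PD-L1 (3.23% of all genes). In the 2FF combination 0 of 14 differed (2.06% of all genes higher and 2.37% lower). Mgat5 was at 322 CPM in control and 237 to 261 elsewhere, Fut8 at 174 to 201 in all 6 libraries, and Gmds, the first enzyme of GDP-fucose synthesis, at 311 in control and 187 to 235 elsewhere.

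A few heat shock genes were lower in each library with anti-PD-L1 than in its partner without it. Of 7867 genes compared in all 3 pairs with and without it, 3 were lower by 1.5-fold in each (0.0381%) and all were chaperone genes of the heat shock list. Hspa1b was at 482 CPM in control and 59.3 under anti-PD-L1, at 185 under 2DG and 16.9 with anti-PD-L1 added, and at 87.4 under 2FF and 55.8 with anti-PD-L1 added (-2.92, -3.12 and -0.60). In the Havcr2-negative CD8 T cells Hspa1b was as far down in the first 2 pairs (-2.99 and -3.44). Hspa1a (-2.54, -2.92 and -1.31) and Dnajb1 (-1.84, -0.93 and -0.62) did likewise. The 2 genes higher in all 3 pairs (0.0254%) were 2310016D23Rik and the macrophage marker Mrc1, both named after their values were seen because the count was small. An edgeR fit over the 6 sums, with the agent as a block and 2 residual degrees of freedom, called 0 of 10968 genes, and 307 had an unadjusted p under 0.05.

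By the rule for treatments (the 5 largest ratios in each direction among genes found in at least 10% of the members of the higher library), the genes furthest apart between the combination and anti-PD-L1 alone were, for 2DG, Abcb1b, a drug efflux pump gene (364 against 98.3 CPM, 1.84), Myo16 (1.73), Ier5l (1.54), Ece1 (462 against 162 CPM, 1.48) and Mpp7 (1.47) on the higher side. Taco1 (13.8 against 52.7 CPM, -1.62), Hspa1b, Hspa1a, Tex14 (-1.44) and Rcsd1 (-1.39) were on the lower side. For 2FF they were Rasgrf1 (1.72), Cdk5rap1 (1.65), H2-T23, which encodes the NKG2A ligand Qa-1 (242 against 75.9 CPM, 1.61), Snhg6 (1.56) and Scmh1 (1.30), with Sema6d (-1.27), Grik1 (-1.22), the cytokine receptor gene Il31ra (118 against 272 CPM, -1.17) and Fam20a (-1.08) lower. The differences named in both comparisons were of the same sign in the Havcr2-negative CD8 T cells, where the ratio was 1.78 for Abcb1b, 1.70 for Myo16, 1.39 for Ier5l, 1.27 for Ece1, 1.47 for Mpp7, -1.50 for Taco1, 1.41 for H2-T23 and -1.07 for Il31ra. It was smaller there for Rasgrf1 (0.60), Sema6d (-0.24) and Fam20a (-0.23), and no difference between the populations was tested.

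Against the agent alone, the 2DG combination was highest for Abcb1b (364 against 66.3 CPM, 2.37), Creb3l2 (2.09), Nmrk1 (1.83), Uhrf2 (583 against 185 CPM, 1.63) and Dhx40 (1.63), and lowest for Hspa1b, Hspa1a, Taco1 (-1.62) and Rnf43 (-1.51). The 2FF pair differed by less. Ifi27l2a, an interferon-induced gene (252 against 115 CPM, 1.1), Abcb1b (1.09), Scmh1 (1.04), Snhg6 (1.0) and Pgm2l1 (0.94) were higher, and Slc15a2 (-2.01), Sema6d (-1.58), Itgae, the gene of the residency integrin CD103 (23.6 against 66.6 CPM, -1.33), Hspa1a (-1.31) and Gzma lower.

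Against control, several genes furthest up had no UMI in the 50 control members. Ap4s1 was at 42.0 CPM under 2DG, 35.0 under 2FF and 38.5 under anti-PD-L1. Set against a floor of 3 counts in the control library (8.13 CPM) this was at least 5.17-fold, 4.31-fold and 4.74-fold higher. For Sh3glb2, also at 0 in control, the bounds were 2.79-fold, 3.01-fold and 2.72-fold. Plcl1 had 4 UMIs in control (10.8 CPM) and reached 146 CPM under 2FF and 92.1 under anti-PD-L1, while in Havcr2-negative cells it was lower than control in both (-0.72 and -0.76). Further down than other genes against control were Il1r2 (-2.29), Phlda1 (-2.16), Pde8a (-1.88), Ppp1r3b (-1.85) and Cdh17 (-1.79) under 2DG. Under 2FF these were Hspa1b (-2.40), Ppp1r3b (-2.17), Pgm2l1 (-2.16), Cdh1 (-2.08) and Bcl2 (-1.88), and under anti-PD-L1 Hspa1b, Hspa1a, Rasgrf1 (-2.17), Cdh17 (-2.05) and Il1r2 (-2.02). Without doublet-marked cells the Il1r2 differences from control were -0.69 (2DG), -0.13 (2FF) and -0.28 (anti-PD-L1).

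Markers of other cells also differed between the libraries' members. S100a8 was at 715 CPM in control and 96.8 in the 2FF combination, with 1.16 to 13.9 in the other 4, and S100a9 was at 683, 98.3 and 2.52 to 23.4 in the same libraries. The control values rest on few cells, since all 7 neutrophil markers together came to 163 CPM in control without its 3 doublet-marked members. Cd74 was at 24.4 CPM in control, 216 under 2DG, 457 under 2FF, 273 under anti-PD-L1 and 270 and 167 in the combinations, and H2-Aa at 5.42 in control and 63.1 to 183 elsewhere. With doublet-marked cells left out, the Cd74 differences from control were 1.1 under 2DG, 1.92 under 2FF and 1.26 under anti-PD-L1, and those of Csf1 were 1.69, 2.72 and 1.68, where all cells gave 0.30, 1.34 and 0.30. The part of these other cells in the differences from control was otherwise not tested.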

How the data were processed

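Single-cell RNA-seq (10x Chromium 3' v3.1) was measured in 6 libraries of 1 mouse each. Unnormalised UMI counts by gene and barcode were deposited by the authors, aligned to mm10 with Cell Ranger 7.0.0 per the file headers and the study's methods and 3.1.0 per the submitters' notes. The tables held 57078 barcodes, 32285 features and 61859753 to 73885214 UMIs per library. Cells were kept with at least 250 genes and at most 5% mitochondrial UMIs, and the gate on counts given above was applied. The members and gene lists were chosen with earlier results of these data known. Doublets were scored from simulated cell pairs and kept in the main values.

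Counts were summed by library and population and tested with edgeR 4.0.16 (R 4.3.3), TMM, at least 50 UMIs over the 12 sums, library as block. The populations of a library come from 1 mouse, which is where the pairing comes from. Libraries stand for separate mice, and cells were not used as replicates. Shares and Trbv were compared by exact sign-flip permutation written in Python 3.11.15, and scipy 1.17.1 gave the binomial and Poisson intervals. Named genes were list genes and, for ranks, the 10 (populations) or 5 (treatments) largest in each direction. DESeq2 1.42.0, upper-quartile scaling, thinning and other filters were alternatives. The edgeR step was tested on simulated data. Of the list genes, 2 (Mx1, Aldoa) share a symbol between identifiers and were not used. Positions are from GENCODE on GRCm38. A few results that the naming rule and lists cover are not reported here.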

Additional observations from a re-analysis of the deposited data

How the results depend on the processing

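Of 163 gene calls between populations, 112 kept direction and side of the threshold in every alternative. Of their 2438 recomputed values, 2312 did, 122 lost the call and 4 reversed. The 2892 genes called over Tcf7-positive Havcr2-negative cells became 1859 with cells thinned to 2000 UMIs and ranged from 2316 to 3122 with 1 library left out. The 1754 over double-negative cells became 984 when thinned (483 higher, 501 lower), ranged from 1308 to 1937 with 1 library left out, and came to 311 (154 higher, 157 lower) with no replicate block, where 47 of the 163 calls were lost, mostly those under 0.6 on the log2 scale over double-negative cells. Without doublet-marked cells Rsad2 was at -0.16 and -0.19 and Mrc1 over double-negative cells at -0.53. Mrc1 was at -0.21 in cells with 0 myeloid UMIs. Over double-negative cells Tigit ranged from -0.0053 (without anti-PD-L1) to 0.10 with 1 library left out, and Lgals9 from -0.092 to 0.018 (without 2FF), with 0.0039 under no filter on low counts and 0.048 when thinned. The cause of these changes was not tested.

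Leaving out 1 library moved the receptor differences from Tcf7-positive Havcr2-negative cells and from double-negative cells between 54.1 and 59.6 and between 29.5 and 31.6 points for Lag3, 42.1 and 44.0 and 17.9 and 19.9 for Pdcd1, 26.3 and 30.4 and 15.1 and 17.5 for Ctla4, and 14.9 and 16.7 and 9.16 and 11.7 for Tigit, where 5 libraries allow an exact p of 0.0625 at the least. Thinned, Tigit differed by 1.52 points from double-negative cells. The Trbv log2 ratio ranged from -0.20 to 0.0026, the latter without control.

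The Havcr2 share was 31.1%, 25.9%, 37.5%, 32.4%, 37.9% and 39.4% with at least 2 Havcr2 UMIs, 30.6%, 22.5%, 33.7%, 28.8%, 33.6% and 30.8% when thinned, and 43.7%, 58.1%, 52.9%, 55.7% and 57.2% in the 5 treated libraries with dividing cells included.

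A pseudocount of 20 CPM cut the genes past 1.5-fold to 682 of 1399 for 2DG against control, 967 of 2170 for 2FF, 905 of 1930 for anti-PD-L1, 227 of 646 (155 higher, 72 lower) for 2DG plus anti-PD-L1 (the 2DG combination) against anti-PD-L1, 118 of 397 (71 and 47) for the 2FF combination against it, 266 of 643 (182 and 84) against 2DG and 86 of 310 (36 and 50) against 2FF. A pseudocount of 1 gave 1084, 718, 1007 and 667 for the last 4. A minimum of 100 UMIs gave 798 (2DG), 1274 (anti-PD-L1) and 257 (the 2FF combination), and thinning gave 873 for 2DG. The 5 genes moving together in all 3 pairs became 14 (7 higher, 7 lower) with a pseudocount of 1, 2 (1 and 1) with 20, 4 with centred ratios, 1 at 2-fold, and, in settings chosen after seeing the data, 0 by edgeR and 36 (21 and 15) without the control pair. Il1r2 under 2FF was 0.077 above control in cells with 0 myeloid UMIs, and Rsad2 0.74 above 2DG alone in the 2DG combination without doublets. The control library's 50 cells limit each comparison with it.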
